A study of Mus musculus with 16 samples.

Results

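Mitochondrial ribosomal protein (MRP) mRNAs come from nuclear genes for the proteins of the ribosome that works inside mitochondria. They were taken by name, as symbols that start with Mrpl or Mrps followed by a number. Of 13015 genes listed, 78 had such a name. Of these, 2 carried a pseudogene suffix and were left out, and the other 76 were analysed. By their known place, 49 encode proteins of the large subunit and 26 of the small subunit, while Mrps36 encodes a protein now placed in the 2-oxoglutarate dehydrogenase complex. Mrps18a and Mrps30 carry a small subunit name but encode large subunit proteins. The choice by name used no measured value.

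The mitochondrial ribosome makes only the few proteins encoded by the mitochondrial genome, which are core subunits of the respiratory chain and of ATP synthase. Its own proteins are encoded in the nucleus, made by cytoplasmic ribosomes and imported. Some descend from the ribosome of the bacterial ancestor of mitochondria, and others, here called mitochondria-specific, were added later.

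The samples came from NIH/3T3, a single mouse fibroblast line, carrying a control siRNA (siControl) or an siRNA against Apc (siAPC), a knockdown that left part of the Apc RNA in place. In all 4 groups, serum-starved cells stood 2 h on filters with pores of 3 µm, met lysophosphatidic acid (LPA) from below for 1 h, and were fixed 10 min in 0.3% paraformaldehyde. What had grown through the pores was the protrusion fraction (Ps) and what stayed above was the cell body fraction (CB), with 4 libraries for each fraction and siRNA. The study calls the replicates independent, but the labels do not say whether they were separate cultures, so p-values measure the spread between these libraries.

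The libraries held 13466225 to 20296087 reads in listed genes, and the median MRP mRNA had 662 to 1039 reads per library. The targeted gene followed the labels. The log2 CPM (log2 of reads per 1000000, as deposited) of Apc was 2.13, 2.59, 3.54 and 2.17 in CB with siControl and 0.54, 1.42, 1.02 and 0.75 in CB with siAPC. In Ps it was 3.52, 3.73, 3.29 and 3.56 with siControl and 1.63, 1.90, 1.87 and 1.33 with siAPC, and the siRNAs did not overlap in either fraction. Fibroblast markers were listed for 8 of 8, though Thy1 had few reads, and of the epithelial, leukocyte and endothelial markers 2 of 4, 1 of 3 and 1 of 2 were listed. The protrusion RNA Rab13 lay at 3.53 to 3.92 in CB and 6.09 to 6.62 in Ps of siControl, and the nuclear RNA Malat1 at 5.95 to 7.82 and 3.11 to 4.25. In 4 libraries, siControl CB replicate 3 and replicate 2 of the other 3 groups, GC-rich genes read lower than in the rest of their group. In bulk fractions a level is relative to the other RNAs of the fraction, and fewer protrusions and less RNA per protrusion cannot be told apart.

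Starts of the mRNAs are shown first, because many cytoplasmic ribosomal protein mRNAs begin with a C and a run of pyrimidines (the 5′ TOP motif), which ties their translation to growth signals. The first 30 bases from the RefSeq start (GRCm38.p6) follow for 5 MRP mRNAs high in Ps and for 5 near equal in the fractions as deposited. Those 5 were called lower in siControl Ps when libraries were scaled by reads in listed genes alone. Last come 3 cytoplasmic ribosomal protein mRNAs that carry the motif. Capitals mark the leading run of C and T.
Mrpl42: Cggcgcctttaggacccagattgaagcaag
Mrpl30: acggtctgtgacggcaacggcgtggtttga
Mrpl47: ggtctccattagaaacatggctgcgaccag
Mrps18c: ggcggagaaccatggccgctctggttgctc
Mrpl35: Tgcggccaccgtaggcaggctgcaagatgg
Mrps27: acttggtgcgctccaagatggcggctccca
Mrps2: gagtctctgcaggatctctgtccacgcgcc
Mrps5: gcatggcggcggccgtacgcgctgcaggct
Mrps31: gcggaacagtgcaggctggaaaacatctcg
Mrps18b: CCTTggcccaccctagtgcgtgtcccgagc
Rps6: CTCTTTTTCgtgacgcctcccaggcgctcg
Rps15a: CTTCCCTCgccggtgagtgagtgtttgtga
Rpl38: CTTTCCCCgttctcttcggttctcatcgct

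A start with C and at least 5 pyrimidines was found in 0 of the 67 MRP genes matched in the RefSeq table, in 12 of 57 matched cytoplasmic ribosomal protein genes (21.1%) and in 2.32% of all 9170 matched genes. RefSeq starts may differ from those used in these cells. The search found the motif in only 12 of 57 of the group known for it. The 0 of 67 therefore does not show that MRP mRNAs lack it.

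The first comparison asked which MRP mRNAs were richer in protrusions than in cell bodies of control cells. Of the 76, 67 were higher in Ps and 0 lower, and 9 did not pass the test (limma, adjusted p below 0.05 over all genes). Among all genes, 29.1% were called higher and 31.2% lower. The median log2 fold change was 0.52 over the MRP mRNAs, a fold of 1.43, beside -0.00 over all genes. The 4 libraries of Ps lay entirely above the 4 of CB for 62 MRP mRNAs, as they did for 24.0% of all genes. With libraries set side by side by replicate number, which did not mark pairs in siControl, the MRP median of Ps minus CB was 0.52, 0.40, 0.61 and 0.47, and 68 to 75 of the 76 were positive.

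With siAPC, 62 were higher and 0 lower (29.8% and 30.9% of all genes), the median was 0.43, and by replicate number it was 0.40, 0.46, 0.47 and 0.46. The fractions did not overlap for 64 MRP mRNAs and for 28.2% of all genes. All 62 called with siAPC were among those called with siControl.

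**Figure D1:**
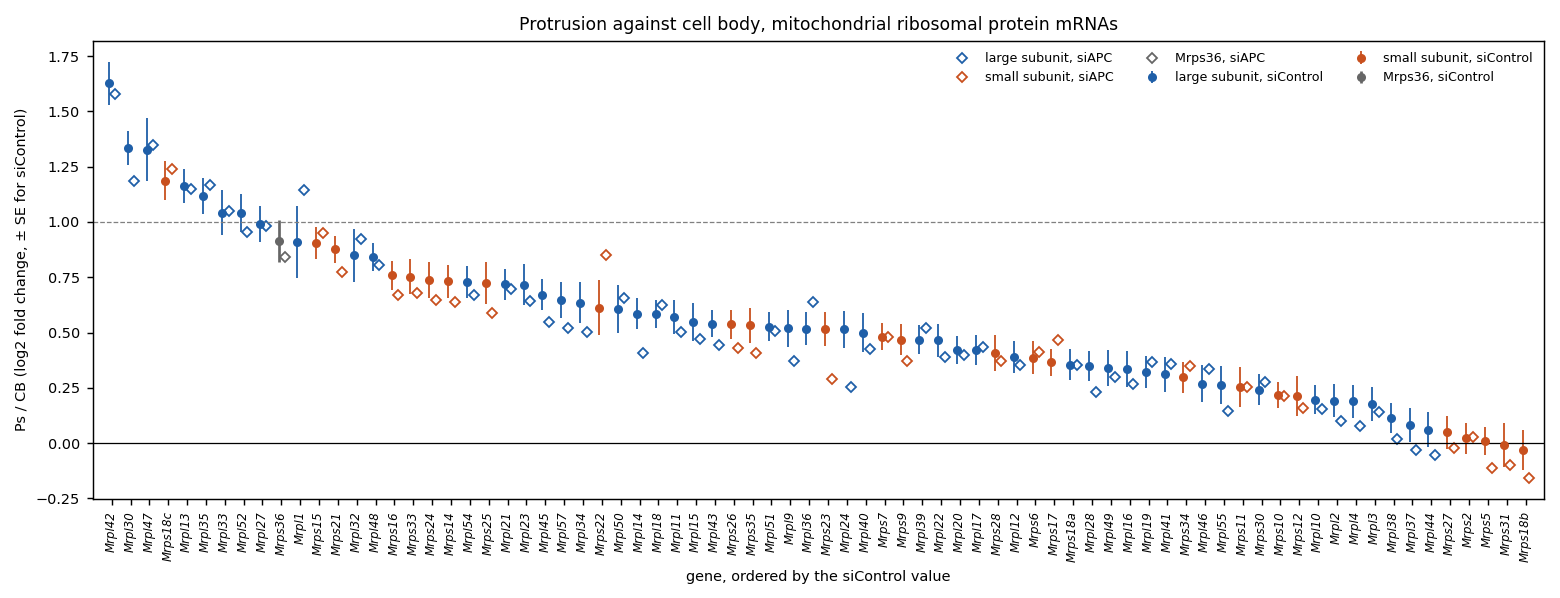
Log2 fold change of Ps against CB for each of the 76 genes, ordered by the siControl value. Filled circles with bars are the siControl estimate ± SE, open diamonds the siAPC estimate, colours the subunit, and the dashed line a fold of 2. The siControl values run from 1.63 for Mrpl42 to -0.03 for Mrps18b.

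These counts depended on how libraries were set on one scale. The scaling in the deposited values counted siControl Ps libraries as 0.801 to 0.908 of their listed reads and siControl CB libraries as 1.03 to 1.15 of theirs. Messages of cytoplasmic ribosomal proteins filled 21.5% to 25.7% of listed reads in siControl Ps and 11.6% to 13.0% in siControl CB. Scaling by listed reads alone shifted every gene by -0.30 in siControl and -0.16 in siAPC. On that scale 47 MRP mRNAs were higher and 8 lower in siControl (15.4% and 47.6% of all genes), and 53 higher and 7 lower in siAPC (21.5% and 39.3%). After a loess correction for GC content and transcript length, 43 were higher and 10 lower in siControl (27.5% and 27.5% of all genes), and 36 higher and 11 lower in siAPC (24.7% and 26.1%). Called higher under the deposited scaling, the listed-read scaling and the loess correction alike were 33 MRP mRNAs in siControl and 34 in siAPC. Together the MRP mRNAs took 0.365% to 0.402% of listed reads in siControl CB and 0.442% to 0.467% in siControl Ps. With siAPC these shares were 0.374% to 0.388% and 0.466% to 0.486%, so the share was higher in every Ps library than in any CB library of the same siRNA.

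The largest difference was that of Mrpl42, a mitochondria-specific protein of the large subunit (chr10:95480805-95501940, minus strand, GRCm38). Its log2 CPM was 4.66, 4.45, 4.79 and 4.53 in siControl CB and 6.55, 6.27, 6.04 and 6.07 in siControl Ps. With siAPC it was 4.54, 4.59, 4.45 and 4.56 in CB and 6.17, 6.19, 6.05 and 6.04 in Ps. Every Ps library was above every CB library by more than 1 log2 unit. Ps/CB was 1.63 ± 0.10 (log2 fold change ± SE, limma adjusted p = 1.28e-10) in siControl and 1.58 ± 0.10 (limma adjusted p = 3.27e-10) in siAPC.

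Mrpl30, the counterpart of bacterial L30 (chr1:37890477-37898535, plus strand), came next in siControl under the deposited scaling. In siAPC Mrpl47 and Mrps18c, described below, lay above Mrpl30. Its levels were 6.27, 6.31, 6.12 and 6.22 in siControl CB and 7.83, 7.58, 7.44 and 7.41 in siControl Ps. With siAPC they were 6.29, 6.28, 6.20 and 6.14 in CB and 7.48, 7.44, 7.35 and 7.39 in Ps. The fractions did not overlap with either siRNA, and Ps/CB was 1.34 ± 0.08 (limma adjusted p = 8.71e-11) and 1.18 ± 0.08 (limma adjusted p = 6.06e-10).

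Mrpl47, related to bacterial L29 (chr3:32725397-32737605, minus strand), was among the least abundant. It stood at 2.15, 2.31, 2.49 and 2.41 in siControl CB and 3.78, 3.74, 3.63 and 3.51 in siControl Ps, on 74 to 188 reads per library. Ps/CB was 1.33 ± 0.14 in siControl and 1.35 ± 0.14 in siAPC, with no overlap of fractions in either. Ndufb5 and Actl6a on the opposite strand cover 13.9% of its exonic bases. Mrps18c, a small subunit protein of the S18 family (chr5:100798627-100804471, plus strand), ranged over 4.02 to 4.35 in CB and 5.20 to 5.53 in Ps, and its Ps/CB was 1.19 ± 0.09 and 1.24 ± 0.09. Corrected by loess, it was 0.21 and 0.30, still called higher. The gene model Gm43511 covers 23.2% of its exonic bases on the same strand, so its reads could be split.

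The study called an RNA Ps-enriched at a fold change above 2 with an unadjusted p below 0.05. By this rule 8 MRP mRNAs were Ps-enriched in siControl, where 7.19% of all genes were, and 8 in siAPC, where 7.67% were, with 7 in common. Beside the 4 just described, these were Mrpl13 (1.16 ± 0.08 in siControl), Mrpl35 (1.12 ± 0.08), Mrpl33 (1.04 ± 0.10) and Mrpl52 (1.04 ± 0.08). In siAPC Mrpl52 stood at 0.95 ± 0.08, under the fold of 2, and Mrpl1, with 0.91 ± 0.16 in siControl, stood at 1.14 ± 0.16, above it. Just outside the rule in siControl, under the deposited scaling, was Mrpl27, the counterpart of bacterial L27, at 0.99 ± 0.08. Scaled to listed reads, 3 met the rule in siControl and 5 in siAPC, and after the loess correction 3 and 3 did. With loess these were, for both siRNAs, Mrpl42 and Mrpl47 of the genes above and Mrpl23, which stood at 0.72 ± 0.09 and 0.64 ± 0.09 under the deposited scaling and at 1.09 and 1.04 with loess. With loess, Mrpl52 stood at 0.42 and 0.39, Mrpl1 at 0.56 and 0.68 and Mrpl27 at 0.25 and 0.30 in siControl and siAPC, and in siAPC Mrpl30 stood at 0.71 and Mrpl13 at 0.74.

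At the other end, 9 MRP mRNAs did not pass with either siRNA under the deposited scaling. Mrps18b (chr17:35910379-35916389, minus strand) is a relative of S18, though counted here with the mitochondria-specific proteins. It stood at 6.17, 6.20, 5.87 and 6.17 in siControl CB and 6.24, 6.01, 6.03 and 6.03 in siControl Ps. With siAPC it stood at 6.07, 6.02, 6.06 and 6.10 in CB and 5.92, 5.65, 5.93 and 6.13 in Ps. The fractions overlapped with both siRNAs, and Ps/CB was -0.03 ± 0.09 (limma adjusted p = 0.791) and -0.16 ± 0.09 (limma adjusted p = 0.144). It was called lower at -0.33 and -0.31 when scaled to listed reads, and at -0.48 and -0.55 after the loess correction. The gene model Gm16279 on the opposite strand covers 30.5% of its exonic bases.

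The other 8 were evenly split between the subunits. In siControl, Ps/CB was -0.01 ± 0.10 for Mrps31, 0.01 ± 0.06 for Mrps5, 0.02 ± 0.07 for Mrps2 and 0.05 ± 0.07 for Mrps27, a protein with pentatricopeptide repeats. It was 0.06 ± 0.08 for Mrpl44, which resembles ribonuclease III, 0.08 ± 0.08 for Mrpl37, 0.11 ± 0.07 for Mrpl38 and 0.18 ± 0.08 for Mrpl3 (limma adjusted p = 0.0525). Scaled to listed reads, all of these except Mrpl3 were called lower in siControl, from -0.31 for Mrps31 to -0.19 for Mrpl38. With loess, Mrps31 at -0.27 and Mrpl44 at -0.20 were called lower and Mrpl37 at 0.20 higher, and the rest were not called. The lowest values called in siControl were 0.19 ± 0.08 for Mrpl4, 0.19 ± 0.07 for Mrpl2, 0.20 ± 0.07 for Mrpl10, 0.21 ± 0.09 for Mrps12, the counterpart of the decoding protein S12, and 0.22 ± 0.06 for Mrps10. When libraries were scaled to listed reads these 5 became -0.11 to -0.08. In siAPC the lowest called were 0.21 for Mrps10, 0.23 for Mrpl28, 0.25 for Mrpl24, 0.25 for Mrps11 and 0.27 for Mrpl16. Scaled to listed reads, Mrps10, Mrpl28 and Mrpl24 were not called in siAPC (limma adjusted p = 0.367, 0.230 and 0.315). With loess, Mrpl24 at -0.13, Mrps11 at -0.07 and Mrpl16 at -0.09 turned negative and were not called.

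The relatives of bacterial S18 were spread over the order under the deposited scaling. Mrps18c ranked 4 of 76 in siControl, Mrps18a ranked 52 with 0.36 ± 0.07, and Mrps18b ranked 76. After the loess correction Mrps18a, at 0.55, lay above Mrps18c, at 0.21. Neighbours in the order often differed by less than their SE, whose median over the 76 was 0.0763.

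**Figure D2:**
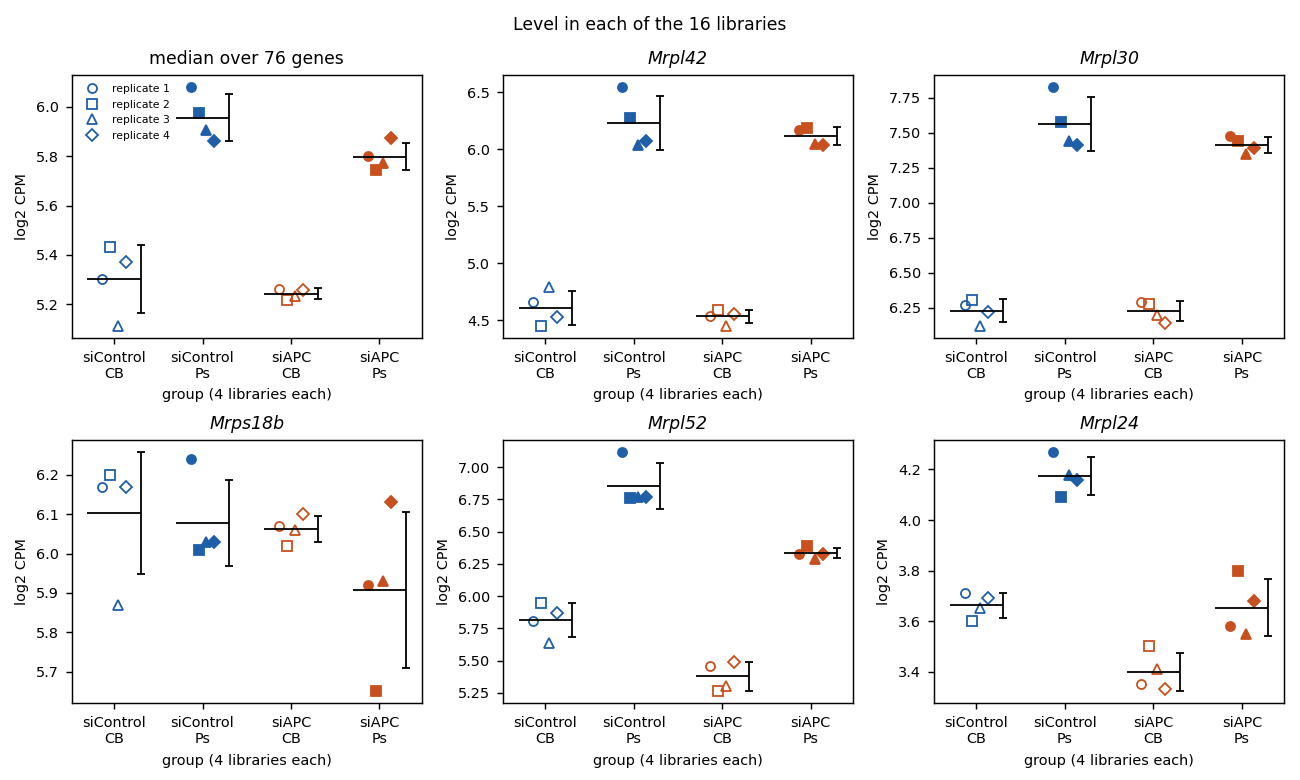
Log2 CPM in each of the 16 libraries, as the median over the 76 genes and for 5 of them. Symbols are replicates, blue is siControl, orange is siAPC, open symbols are CB, filled symbols are Ps, and the lines give the mean and SD of 4 libraries. The medians lie at 5.11 to 5.43 in CB and 5.75 to 6.08 in Ps, and for Mrps18b the fractions overlap.

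Both subunits held mostly mRNAs that were higher in Ps under the deposited scaling. Of 49 large subunit messages 45 were higher in siControl and 41 in siAPC, with medians of 0.52 and 0.44. Of 26 small subunit messages 21 and 20 were higher, with medians of 0.47 and 0.41. In siControl, large subunit messages with a bacterial counterpart were higher in 29 of 30 and mitochondria-specific ones in 16 of 19. Among small subunit messages these were 14 of 16 and 7 of 10. The mitochondria-specific classes include Mrps18a (large subunit) and Mrps18b (small subunit), although both are relatives of bacterial S18. Of all genes 29.1% were higher in siControl and 29.8% in siAPC under the deposited scaling. In the same order, 21, 11, 8 and 6 of these classes were higher in siControl on listed reads, with 0, 3, 2 and 3 lower. With loess 18, 12, 7 and 6 were higher, with 4, 2, 2 and 2 lower. On listed reads 32 large and 14 small subunit messages were higher in siControl, with 3 and 5 lower, where 15.4% of all genes were higher and 47.6% lower. In siAPC 35 and 17 were higher there, with 3 and 4 lower (21.5% and 39.3% of all genes). With loess 30 large and 13 small subunit messages were higher in siControl, with 6 and 4 lower, where 27.5% and 27.5% of all genes were. In siAPC 25 and 11 were higher with loess, with 6 and 5 lower (24.7% and 26.1% of all genes). Mrps36 was called higher with 0.91 ± 0.09 and 0.84 ± 0.09, but after the loess correction it stood at -0.04 and -0.06 and was not called. Differences between these classes were not tested.

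Coding length moved with Ps/CB. The Spearman correlation across the 76 MRP mRNAs was -0.50 in siControl and -0.49 in siAPC, and across 11483 protein-coding genes it was -0.34 and -0.32. GC content moved with it too, at -0.32 and -0.34 across the MRP mRNAs and at -0.39 and -0.50 across the protein-coding genes. Once corrected by loess, which removes trends in GC content and transcript length, the correlation with coding length was -0.02 and -0.07 across the MRP mRNAs. That with GC content was then -0.24 and -0.12 across the MRP mRNAs and -0.01 and -0.02 across the protein-coding genes. These are correlations across genes of the same libraries, which are not independent replicates. The 9 messages that did not pass had coding lengths of 762 to 1296 bases (median 1140), and those called higher had 261 to 1326 (median 558). The longest of the 76, Mrps30, was among the latter with 0.24 ± 0.07, but it was not called at -0.06 when scaled to listed reads or at -0.15 after the loess correction.

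Other genes of the same coding length give the setting, in siControl under the deposited scaling unless stated. Up to 450 bases, 22 of 22 MRP mRNAs were called higher with a median of 0.69, and other protein-coding genes had a median of 0.62, with 69.9% called higher. From 450 to 600 bases the medians were 0.58 for 18 MRP mRNAs and 0.36 for other genes. From 600 to 900 bases they were 0.39 for 21 and 0.12, and from 900 to 1200 bases 0.47 for 11 and -0.01. The MRP median lay above that of other genes in each of these classes, and it did so on listed reads. With loess it lay below in the shortest class, at 0.06 beside 0.16, and above in the rest. Of the 22 MRP mRNAs of that class 17 were called higher on listed reads, beside 53.0% of other genes. With loess 10 of them were higher and 4 lower (45.5% and 18.2%), near the shares of other genes (340 higher and 124 lower of 773). The class from 1200 to 1500 bases held only 4 MRP mRNAs, with a median of 0.06 beside -0.12. In siAPC 20 of the 22 shortest were called higher, beside 69.7% of other genes. With loess in siAPC the class from 1200 to 1500 bases lay below other genes, at -0.08 beside -0.04. The part of length and GC content in the Ps/CB values was not tested.

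**Figure D3:**
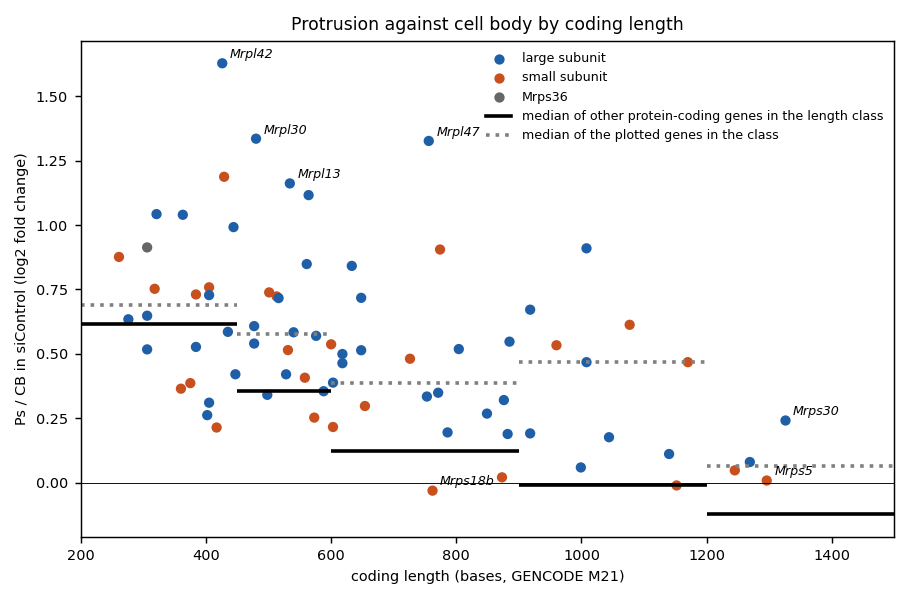
Log2 fold change of Ps against CB in siControl, under the deposited scaling, by coding length in bases. Each point is 1 of the 76 genes, coloured by subunit, solid bars are medians of other protein-coding genes in length classes and dotted bars are medians of the points. In the shortest class the medians are 0.69 and 0.62, and in the longest 0.06 and -0.12.

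The rest of the machinery of mitochondrial translation did not share a direction. The counts that follow are under the deposited scaling, where 29.1% of all genes were higher and 31.2% lower. Of 6 mitochondrial ribosomal proteins listed under other names 5 were higher in siControl Ps, among them Chchd1 at 0.97 ± 0.11 and Ict1, which releases stalled chains, at 0.61 ± 0.07. The value of Chchd1 was -0.00 after the GC and length correction. Of 14 initiation, elongation and termination factors 3 were higher and 1 lower, with the recycling factor Mrrf at 0.73 ± 0.07 and Guf1, a GTPase related to elongation factor 4, at 0.83 ± 0.28. Guf1 was not called when scaled to listed reads (0.53, limma adjusted p = 0.135). Of 20 aminoacyl-tRNA synthetases and amidotransferase subunits 2 were higher and 7 lower, with Vars2 at -0.70 ± 0.07. After the loess correction Vars2 stood at -0.08 and was not called (limma adjusted p = 0.318).

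Of 22 assembly and rRNA modification factors 6 were higher and 8 lower, among the latter the RNA helicase Dhx30 at -1.20 ± 0.35 and Mettl17 at -0.85 ± 0.11. Of 14 factors of mitochondrial mRNA handling and transcription 5 were higher and 3 lower, with the RNA-binding protein Slirp at 1.77 ± 0.11 and the mitochondrial RNA polymerase Polrmt at -0.78 ± 0.12. After the loess correction Dhx30 stood at -0.66 (limma adjusted p = 0.124) and Polrmt at -0.11 (limma adjusted p = 0.163), and neither was called. Of 9 regulators of nuclear genes for mitochondrial proteins 0 were higher and 3 lower. In siAPC the counts of higher and lower were 5 and 0, 3 and 0, 3 and 8, 6 and 7, 6 and 4, and 0 and 3 in the same order of lists. Among all genes 29.8% were higher and 30.9% lower in siAPC. The siControl counts of these lists also moved with the scaling. On listed reads, where 15.4% and 47.6% of all genes were called, the higher and lower counts were 3 and 1, 2 and 5, 2 and 15, 4 and 13, 2 and 5, and 0 and 6. With loess (27.5% and 27.5% of all genes) they were 4 and 0, 5 and 3, 4 and 5, 5 and 9, 3 and 2, and 1 and 2. The siAPC counts on listed reads (21.5% and 39.3% of all genes) were 4 and 0, 3 and 5, 2 and 12, 4 and 11, 5 and 5, and 0 and 4. With loess (24.7% and 26.1%) the siAPC counts were 4 and 0, 4 and 2, 4 and 8, 5 and 11, 4 and 4, and 1 and 2. The median coding length was 642 bases in the first list and 1215 or more in the others, beside 582 for the MRP mRNAs.

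Messages of related groups lay higher still under the deposited scaling. The median Ps/CB in siControl was 1.27 for cytoplasmic ribosomal protein mRNAs (76 of 77 higher), 0.75 for nuclear-encoded respiratory chain mRNAs (75 of 79) and 1.73 for mRNAs of the mitochondrial genome (9 of 11). Of all genes 29.1% were higher. In each of the 8 sets of a Ps and a CB library with equal siRNA and replicate number, the MRP median was below that of all 3 groups, which was not tested. After the loess correction the siControl medians were 0.22 for the MRP mRNAs, 0.77, 0.21 and 0.69. The respiratory chain and MRP medians were then nearly equal, and with siAPC they were 0.16 and 0.14. With loess 76, 46 and 8 of the 3 groups were higher in siControl and 0, 2 and 3 lower (27.5% and 27.5% of all genes). On listed reads 76, 62 and 8 were higher and 0, 3 and 1 lower (15.4% and 47.6%).

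**Figure D4:**
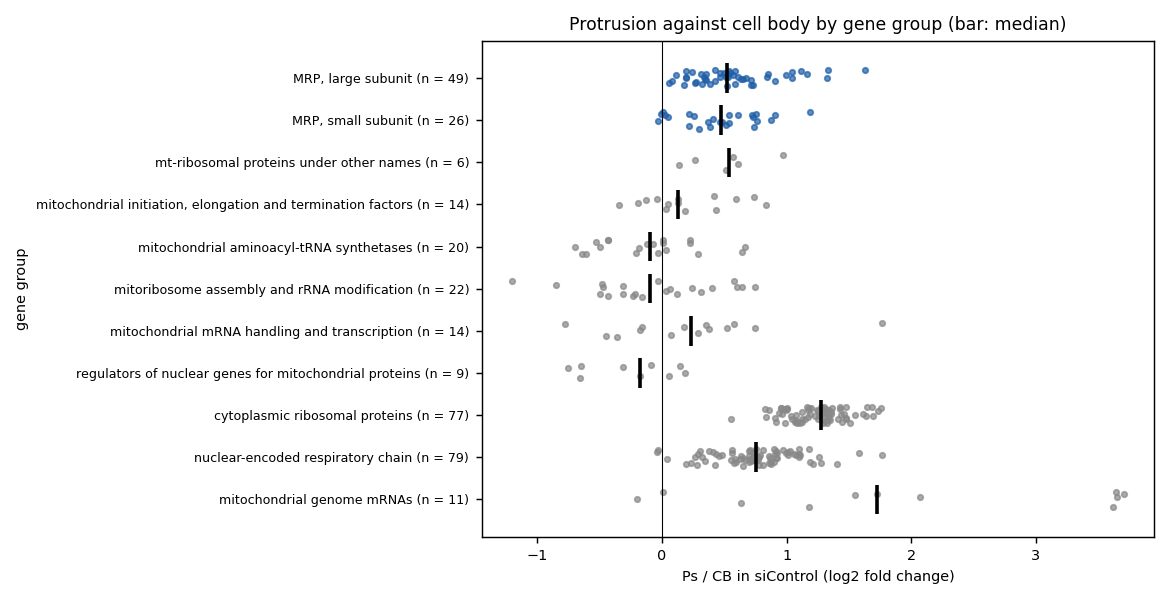
Log2 fold change of Ps against CB in siControl, under the deposited scaling, for the 2 subunits (blue) and for other gene groups (grey). Each point is a gene and each bar a median. The subunit medians are 0.52 and 0.47, below the cytoplasmic ribosomal protein mRNAs at 1.27.

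The second comparison asked whether Ps/CB differed between siRNAs, as log2(Diff FC), the siAPC value minus the siControl value. For the 76 MRP mRNAs, 0 were called higher and 0 lower by limma (0.0% and 0.0231% of all genes), and the smallest adjusted p was 0.981. An unadjusted p below 0.05 was reached by 1 of the 76 and by 3.78% of all genes. Limma with voom weights, with arrayWeights and without an intensity trend also called 0. The median was -0.06, with 53 values negative, and it was 0.08 when libraries were scaled to listed reads. The 95% interval of the difference reached 0.226 to either side at the median and stayed within 0.5 log2 units of zero for 73 of 76.

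The study called a Ps-enriched RNA APC-dependent when log2(Diff FC) was negative with an unadjusted p below 0.1. Of the 8 MRP mRNAs that were Ps-enriched in siControl, 0 were APC-dependent, where 9.4% of all Ps-enriched genes were. With 8 genes, 0 is near that share. The most negative differences were those of Mrpl24, -0.26 ± 0.12 (limma adjusted p = 0.981), and Mrps23, -0.22 ± 0.11 (limma adjusted p = 0.981). The most positive were those of Mrps22, 0.24 ± 0.17, and Mrpl1, 0.23 ± 0.23, which had 118 to 221 and 70 to 184 reads per library. A difference between siRNAs in Ps/CB was thus not detected for any MRP mRNA.

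The third comparison set siAPC against siControl within each fraction. In cell bodies 0 MRP mRNAs were higher and 2 lower, where 7.52% and 5.87% of all genes were, and the median was -0.04, as for all genes. The siRNAs did not overlap, with siAPC lower, for 3 MRP mRNAs and 9.73% of all genes. In protrusions 0 were higher and 13 lower, where 10.7% and 11.2% of all genes were, and the median was -0.09 beside -0.02. There 20 did not overlap, and 11.6% of all genes. Lower in both fractions were 2 MRP mRNAs and 4.34% of all genes. Whether the effect differed between fractions is the log2(Diff FC) above, in which none was called.

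Mrpl52, a mitochondria-specific protein of the large subunit (chr14:54426909-54429756, plus strand), was one of them. In CB it stood at 5.81, 5.95, 5.64 and 5.87 with siControl and 5.46, 5.26, 5.30 and 5.49 with siAPC. In Ps it stood at 7.12, 6.76, 6.77 and 6.77 with siControl and 6.33, 6.39, 6.29 and 6.33 with siAPC. The siRNAs did not overlap in either fraction, and siControl Ps replicate 1 was above the rest of its group. The effect of siAPC was -0.44 ± 0.08 (limma adjusted p = 0.00147) in CB and -0.52 ± 0.08 (limma adjusted p = 0.000171) in Ps. It passed in both fractions under each of 27 alternative settings, with a largest limma adjusted p of 0.00754 in CB and 0.00115 in Ps.

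Mrpl24, the counterpart of bacterial L24 (chr3:87919506-87923672, plus strand), was the other. In CB it stood at 3.71, 3.60, 3.65 and 3.69 with siControl and 3.35, 3.50, 3.41 and 3.33 with siAPC. In Ps it stood at 4.27, 4.09, 4.18 and 4.16 with siControl and 3.58, 3.80, 3.55 and 3.68 with siAPC. The siRNAs again did not overlap. The effect was -0.27 ± 0.08 (limma adjusted p = 0.0387) in CB, where 10 of 27 alternatives did not call it (limma adjusted p from 0.00369 to 0.116), and -0.53 ± 0.08 (limma adjusted p = 0.000127) in Ps, where every one did. Rrnad1 on the opposite strand covers 26.3% of its exonic bases, so its reads are uncertain if strand was not used in counting.

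The other 11 messages lower in protrusions had smaller differences. Mrps25 stood at 5.83, 5.63, 5.31 and 5.37 in siControl Ps and 5.31, 5.15, 5.20 and 5.19 in siAPC Ps, a difference of -0.32 ± 0.10 (limma adjusted p = 0.0208), and Nr2c2 on the opposite strand covers 69.8% of its exonic bases. The effect was -0.27 ± 0.09 for Mrps12, -0.27 ± 0.07 for Mrpl38, -0.26 ± 0.08 for Mrpl57, -0.26 ± 0.08 for Mrps23 and -0.26 ± 0.08 for Mrpl55. It was -0.24 ± 0.07 for Mrps26, -0.23 ± 0.08 for Mrps24, -0.23 ± 0.08 for Mrps35, -0.22 ± 0.07 for Mrps16 and -0.19 ± 0.06 for Mrpl48. For each of these 11 the siRNAs did not overlap in Ps, and each changed by less than 1.5-fold. For Mrps25 the nearest values of the siRNAs were both 5.31 as rounded, so its groups all but touched. By subunit, 7 of 26 small subunit and 6 of 49 large subunit messages were lower in Ps, beside 11.2% of all genes, and the difference between subunits was not tested.

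Most of these calls were lost when some single libraries were left out or the scaling was changed. Mrps24 lost its call in 12 of 16 omissions of 1 library, and Mrps35 and Mrpl48 in 7 each. The count of 13 also rose, to 17 without siControl CB replicate 3, a library outside this contrast that shares the estimate of the spread. In place of 13 there were 4 lower without siControl Ps replicate 1, 8 without siControl Ps replicate 2 or replicate 4 or siAPC Ps replicate 1, 6 without siAPC Ps replicate 2 and 7 without siAPC Ps replicate 3. Scaled to listed reads, which moved all genes by 0.16, 12 MRP mRNAs were higher and 2 lower (22.6% and 4.23% of all genes), the latter being Mrpl52 and Mrpl24. After the loess correction 2 were higher and 8 lower (13.5% and 15.5%), and 6 of the 13 were among the latter. All 13 values were negative under both. With loess, Mrps25 at -0.34, Mrps35 at -0.24, Mrpl57 at -0.24 and Mrpl48 at -0.19 lay near their deposited values but were not called. Mrps12 at -0.14, Mrps24 at -0.13 and Mrpl55 at -0.15 were nearer zero and not called. On listed reads the 11 other than Mrpl52 and Mrpl24 stood at -0.16 to -0.02. In cell bodies 11 were lower in place of 2 without siControl CB replicate 3, 1 without any one of siControl CB replicates 1, 2 and 4 or siAPC CB replicates 1, 3 and 4, and 22 with arrayWeights.

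**Figure D5:**
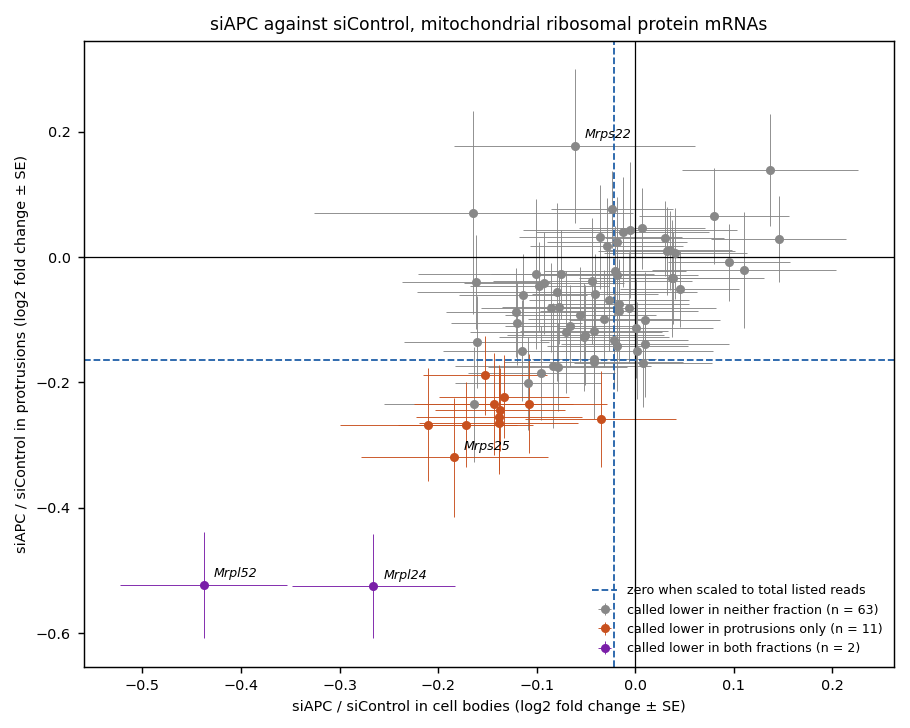
Log2 fold change of siAPC against siControl in cell bodies (horizontal) and in protrusions (vertical), each with its SE, for the 76 genes. Colours mark genes called lower in both fractions (2), in protrusions only (11) or in neither, and dashed lines show where zero lies when libraries are scaled to listed reads. Mrpl52 and Mrpl24 stand at the lower left, with -0.52 and -0.53 in protrusions.

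Promoters of 300 bases, 250 before the start and 50 after it, were searched on both strands for motifs named for factors that act on nuclear genes for mitochondrial proteins. The motif of nuclear respiratory factor NRF1 was in 19.4% of the 67 promoters and in 11.1% of all 9170. CCGGAAG, bound by ETS factors such as GABP, was in 34.3% and 18.7%. AAGATGGC, the YY1 motif, was in 17.9% and 5.05%, and it stands in the first 30 bases of Mrps27 printed above. At least 1 of these was in 59.7% and 30.9%. In the 57 matched cytoplasmic ribosomal protein genes, the NRF1, ETS and YY1 motifs were in 7.02%, 40.4% and 7.02%. At least 1 of them was in 52.6% of that group, so these motifs were not particular to the MRP genes. ATCAAAG, a motif of the TCF/LEF factors downstream of Apc, was in 0 of the 67, 0 of the 57 and 2.42% of all. A count of 0 says only that these letters were not in the windows. At least 1 of the first 3 motifs was in 6 of 7 matched Ps-enriched genes, in 5 of 8 of those that did not pass in Ps/CB and in 7 of 11 of those lower with siAPC in Ps.

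The promoters of Mrpl52, which was lower with siAPC, and of Mrpl30 are shown to place the motifs, written in capitals. The value of Mrpl30 with siAPC was 0.00 ± 0.08 in CB and -0.15 in Ps, and neither was called. In Mrpl52 the ETS motif begins at -47 and 3 and in Mrpl30 the NRF1 motif at -83, where the start is 1, and each is read on the opposite strand (RefSeq, GRCm38.p6, in the direction of the gene).
Mrpl52, chr14:54426659-54426958, plus strand: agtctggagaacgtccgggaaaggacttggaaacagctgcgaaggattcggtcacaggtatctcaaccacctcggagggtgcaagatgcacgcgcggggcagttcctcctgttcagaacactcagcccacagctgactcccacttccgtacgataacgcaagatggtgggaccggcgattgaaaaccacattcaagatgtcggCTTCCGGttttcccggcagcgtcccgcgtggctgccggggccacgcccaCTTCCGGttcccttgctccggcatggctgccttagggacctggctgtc
Mrpl30, chr1:37890227-37890526, plus strand: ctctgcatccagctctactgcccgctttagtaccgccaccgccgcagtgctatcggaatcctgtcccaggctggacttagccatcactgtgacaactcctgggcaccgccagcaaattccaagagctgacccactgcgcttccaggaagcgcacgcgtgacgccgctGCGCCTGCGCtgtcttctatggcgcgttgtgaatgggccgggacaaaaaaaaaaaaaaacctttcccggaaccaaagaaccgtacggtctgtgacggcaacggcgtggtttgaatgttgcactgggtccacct

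Groups beside the MRP messages are set here against 11.2% of all genes lower with siAPC in protrusions. Cytoplasmic ribosomal protein mRNAs were lower in 68 of 77 with a median of -0.36, and respiratory chain mRNAs in 22 of 79 with a median of -0.12. Scaled to listed reads the medians were -0.20 and 0.04, so the sign of the respiratory chain median turned with a shift of all genes by 0.16. On that scale 43 and 5 were lower and 0 and 8 higher, where 4.23% of all genes were lower and 22.6% higher. With loess the medians were -0.30 and -0.05, with 65 and 22 lower and 0 and 6 higher (15.5% and 13.5% of all genes). Of the synthetases 7 of 20 were lower, among them Gatb at -0.52 ± 0.10 and Iars2 at -0.51 ± 0.08, and of the translation factors 4 of 14. On the listed-read scale 3 synthetases and 2 translation factors were lower, with Gatb and Iars2 still called. In cell bodies, where 5.87% of all genes were lower, 6 of 20 synthetases were lower, and so was Mtfmt, which formylates the initiator tRNA, at -0.45 ± 0.10.

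Levels per length, as log2 CPM per kilobase of the main transcript, spread widely among proteins that sit in 1 particle. In siControl CB the highest were 7.15 for Mrpl54, 7.08 for Mrpl52, 6.82 for Mrpl33 and 6.66 for Mrpl28. The lowest were 0.42 for Mrpl1, 0.59 for Mrpl47, 2.21 for Mrps25 and 2.35 for Mrpl32, whose annotated main transcripts of 3556, 3364, 6073 and 3013 bases are long beside their coding lengths. In siControl Ps the highest level was 8.11 for Mrpl52 and the lowest 1.33 for Mrpl1. An annotated transcript longer than the one used in these cells lowers such a value, and a shorter one raises it. The main transcripts of Mrpl52 and Mrpl33 have 418 and 478 bases, and each gene has a longer annotated transcript, of 856 and 2741 bases.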

How the data were processed

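The authors describe stranded total RNA libraries, but the kit they name is TruSeq Stranded mRNA. The libraries were sequenced as paired reads. The methods give alignment to the mouse genome with STAR and GENCODE, counting per gene with Rsubread and limma-voom. The submitters' processing notes name bcl2fastq 1.8.4, STAR 2.4.2a, limma 3.26.1 and the build mm10. Whether counting used strand is not given in the sources used here. The deposited values are log2 CPM made by the authors with limma-voom for 13015 genes in 16 libraries, without voom weights. Inverting the voom formula gave whole reads (within 0.01) for 100% of 208240 values. These reads gave depths and the rescaled alternatives.

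Groups came from the labels. The main test was limma 3.58.1 in R 4.3.3 (lmFit, then eBayes with a trend in intensity), fitted to the deposited values of all 16 libraries, 1 mean per group, Benjamini-Hochberg adjusted over all genes at 0.05. Python 3.11.15, numpy 2.4.6, pandas 2.3.3, scipy 1.17.1 and matplotlib 3.10.9 were used for the rest, and the fit was tested on simulated data. Coordinates, lengths and overlaps came from GENCODE M21 on GRCm38, which may differ from the release counted on. Of the table's names 98.9% matched it. Libraries of equal replicate number correlated, as deviations from group means over 10292 genes, at 0.45, 0.62, 0.53 and 0.42 between siAPC CB and Ps and at 0.16, 0.55, 0.44 and 0.23 between siRNAs in Ps. The main fit had no replicate block, and the fit with it is given among the alternatives.

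Alternatives were a replicate block, a loess correction (span 0.3) for GC content and length, scaling to listed reads, quantile normalization, 2 reads added in place of 0.5, a minimum mean, no trend, voom weights, arrayWeights, libraries left out and other Ps-enrichment rules. Genes named were the 5 highest and 5 lowest called values per contrast of 2 groups, the 2 extremes each way of log2(Diff FC), the 4 highest and lowest levels per length and up to 2 called genes each way per list. Beyond this rule, the messages that did not pass, the Ps-enriched, those lower in Ps, Mrpl23, Mrpl27, Mrps18a, Mrps30, Mrps36 and Ict1 were named after their values were seen. The members and lists were chosen with earlier results of these data known.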

Additional observations from a re-analysis of the deposited data

Results flagged for a closer look

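Among the MRP mRNAs named in the report, 39 and the median over all 76 were looked at in each of 4 groups of 4 libraries, and in 12 of 160 such groups 1 library lay far from the other three on the log2 CPM scale, by Dixon's 95% criterion. Chance gives about 1 in 20. In siControl CB, replicate 3 was low for Mrps35 (5.00 beside 5.29 to 5.31 in the others), Mrpl37 (6.39 beside 6.68 to 6.72), Mrps2 (5.40 beside 5.64 to 5.68), Mrps18b (5.87 beside 6.17 to 6.20) and Mrpl57 (4.93 beside 5.22 to 5.26). This is a library in which GC-rich genes read low. In siControl Ps, replicate 1 was high for Mrpl52 (7.12 beside 6.76 to 6.77), Mrps24 (7.01 beside 6.80 to 6.82) and Mrps18b (6.24 beside 6.01 to 6.03). This library had the lowest ratio of effective to listed reads in the series, 0.801. In siAPC CB, replicate 2 was low for Mrpl2 (6.33 beside 6.39 to 6.40) and Mrpl38 (6.53 beside 6.61 to 6.63). In siAPC Ps, replicate 2 was high for Mrpl35 (6.47 beside 6.22 to 6.24) and low for Mrps11 (5.22 beside 5.44 to 5.45).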

How the results depend on the processing

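Calls and medians depended on the correction for GC content and length and on the library scaling, and some counts on arrayWeights and the fold rule, and the cause was not tested. With the loess correction, 43 MRP mRNAs were higher and 10 lower in siControl Ps (median 0.22, 3 Ps-enriched), and 36 higher and 11 lower in siAPC Ps (median 0.14, 3 Ps-enriched). With it, 2 were called higher with siAPC in CB, and in Ps 2 were called higher and 8 lower. The replicate block together with the loess correction gave the same values for Ps/CB, except 45 higher in siControl, and gave 4 higher in CB and 6 higher in Ps for siAPC. Scaled to listed reads, the lower count was 8 in siControl (median 0.22, 3 Ps-enriched) and 7 in siAPC (median 0.28, 5 Ps-enriched), the median log2(Diff FC) was 0.084, siAPC in CB gave 1 lower, and siAPC in Ps gave 12 higher and 2 lower with a median of 0.077. A fold of 1.5 in place of 2 gave 29 Ps-enriched in siControl and 27 in siAPC. With arrayWeights the siControl median was 0.42 and 22 were lower with siAPC in CB, and with quantile normalization the siAPC median was 0.52. With the 4 GC-trend libraries left out, 6 were called lower with siAPC in CB. Leaving out 1 library at a time gave 0 to 1 lower in siAPC Ps (1 without siAPC Ps replicate 4), 1 to 11 lower with siAPC in CB and 4 to 17 in Ps. The medians then ranged over 0.47 to 0.55 for Ps/CB in siControl, 0.42 to 0.45 in siAPC, -0.09 to -0.01 for siAPC in CB and -0.11 to -0.05 in Ps.

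Among single genes named, sign changes in Ps/CB included the following. In siControl scaled to listed reads the values were -0.11 for Mrpl4, -0.11 for Mrpl2, -0.10 for Mrpl10, -0.083 for Mrps12, -0.081 for Mrps10, -0.19 for Mrpl38, -0.22 for Mrpl37, -0.24 for Mrpl44, -0.25 for Mrps27, -0.28 for Mrps2, -0.29 for Mrps5 and -0.12 for Mrpl3 and -0.056 for Mrps30. With the loess correction, with or without the block, they were -0.14 for Mrpl2, -0.26 for Mrps12, -0.0028 for Chchd1 and -0.20 for Mrpl44 in siControl and -0.13 for Mrpl24, -0.066 for Mrps11 and -0.094 for Mrpl16 in siAPC. Mrps36 (-0.036 and -0.058) and Mrps30 (-0.15 and -0.26) changed sign there too, in siControl and siAPC. The replicate block alone gave 68 higher in siControl, 62 in siAPC, 0 and 0 for log2(Diff FC), and 1 lower in CB and 12 in Ps with siAPC. Equal numbers did not pair the libraries between the fractions of siControl or between the siRNAs in CB, with correlations of 0.34, -0.12, -0.12 and 0.43 and of 0.27, -0.34, -0.32 and 0.26. The other settings (2 reads added in place of 0.5, a minimum mean of 1, no intensity trend, voom weights) left every count within 1.5 times and every median within the spread of pairs. For single named genes, 560 comparisons kept direction and call or were called on neither side, whatever their sign. Of the rest, 61 lost the call, 13 gained it and 25 changed sign with a call on at least 1 side. These leave out the fits without 1 library, where 874 kept direction and call or were called on neither side. There 83 lost the call and 3 gained it. The widest error of Ps/CB, an SE of 0.162, was that of Mrpl1, which also had the fewest reads.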
